A study of Mus musculus with 6 samples.

Results

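The dermal papilla is a small cluster of mesenchymal cells enclosed by the base of the hair follicle, and 9 genes that are widely used as its markers are described here: Crabp1, Sox18, Tbx18, Sox2, Alpl, Vcan, Corin, Trps1 and Prom1. All probe sets whose platform annotation gives 1 of these symbols were taken, which gave 20 of the 45037 probe sets on the array that are not controls, for 9 of 18193 named genes. The numbers of probe sets were 8 for Vcan, 4 for Trps1, 2 for Tbx18 and 1 for each of the other 6 genes. Of the 20, 12 passed a filter on dim probe sets, which kept those in the upper 60% of mean log2 signal. They stand for 8 genes, because the only probe set of Sox2 was too dim.

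Total RNA of hair bulbs taken from mice on postnatal day 9 was measured on 6 oligonucleotide arrays with 1 colour, 2 in each of 3 groups. In emN1 skin Notch1 was deleted during embryonic life, and its bulbs had no functional Notch1. In anN1 skin the deletion was made in anagen, the growth phase of the follicle, and its bulbs still had functional Notch1. The third group was wild-type. The series names anN1 and wild-type as controls, so the main comparison set 2 emN1 against 4 control arrays. Array set 1 held emN1 replicate 1 and anN1 replicate 1, and array set 2 held the other 4. The labels used here name neither the strain nor the Cre line that made the deletions, and they do not say whether the biological replicates came from separate animals, so that p-values measure only the spread between these samples.

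Papilla cells signal to the overlying hair matrix, whose dividing cells form the shaft and its sheaths, and they help to set the length of the growth phase and the type of hair. They arise from dermal fibroblast precursors and receive signals in turn from the epithelium. A bulb holds papilla, matrix, melanocytes and adhering dermal sheath, so that in these bulk samples fewer cells of a type and less RNA per cell cannot be told apart.

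Signals are in the linear units of the array, scaled by the authors so that every array has the same trimmed mean. Probe sets for bacterial control transcripts, where none was detected, had a 95th percentile of 111.8, which is used here as the background limit. Median signals of the arrays lay between 220 and 263. The ratio of the 5′ to the 3′ signal of the actin control was 0.177 and 0.218 on the arrays of set 1 and between 0.37 and 0.419 on those of set 2, and each set held emN1 and anN1 arrays. The same ratio for GAPDH, 0.144 and 0.209 in set 1 and between 0.184 and 0.215 in set 2, overlapped between the sets. The brighter Notch1 probe set gave 6498 and 6292 in emN1 against 12527 to 34070 in the controls, and the dimmer gave 821 and 1561 against 1581 to 3720. Both fell, by 1.55 (SE 0.35) and 0.96 (SE 0.17) on the log2 scale (limma adjusted p = 0.0491 and 0.0211). Both calls were lost without emN1 replicate 1 (limma adjusted p = 0.212 and 0.141), without emN1 replicate 2 (0.423 and 0.221) and without anN1 replicate 1 (0.207 and 0.146), and that of the brighter probe set also without wild-type replicate 1 (0.0996). On the brighter probe set anN1, at 15077 and 12527, lay under wild-type, at 23750 and 34070, a difference of -1.13 (SE 0.20) that did not pass (limma adjusted p = 0.289). Which stretch of Notch1 was removed is not given in the sources used here, so a probe set outside it would check nothing.

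The markers did not move as 1 block in emN1. Crabp1 fell, Sox18, Tbx18 and Vcan rose, Alpl, Corin, Trps1 and Prom1 did not pass the test, and Sox2 was at background. By probe sets, 3 rose, 1 fell and 8 did not pass (limma, Benjamini-Hochberg adjusted over 27022 probe sets, threshold 0.05), where 3.77% of all probe sets tested passed, 2.41% as higher and 1.37% as lower. With 1 probe set for each gene, 4 of 8 marker genes passed, against 5.43% of 12611 genes. The markers and the gene lists below were chosen with earlier results of these data known. Counts set beside this share are therefore no independent test. Both emN1 signals lay above all 4 controls for 4 of the 12 probe sets and below them for 1, where 9.99% of all 27022 lay above and 9.33% below. The median difference of the 12 was -0.04 and that of all probe sets -0.01, on a log2 scale of signal plus 17.8, which understates changes of dim genes. The count of 4 rests on how the variance was modelled and on single arrays: limma without the intensity trend called 0 of 12 (5 at an unadjusted p under 0.05, a level that 16.6% of all probe sets passed with the trend, and 0 of all 27022 probe sets), without the array set term it called 1, in array set 2 alone 1, and without emN1 replicate 2 it called 0 (5 at an unadjusted p under 0.05).

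**Figure D1:**
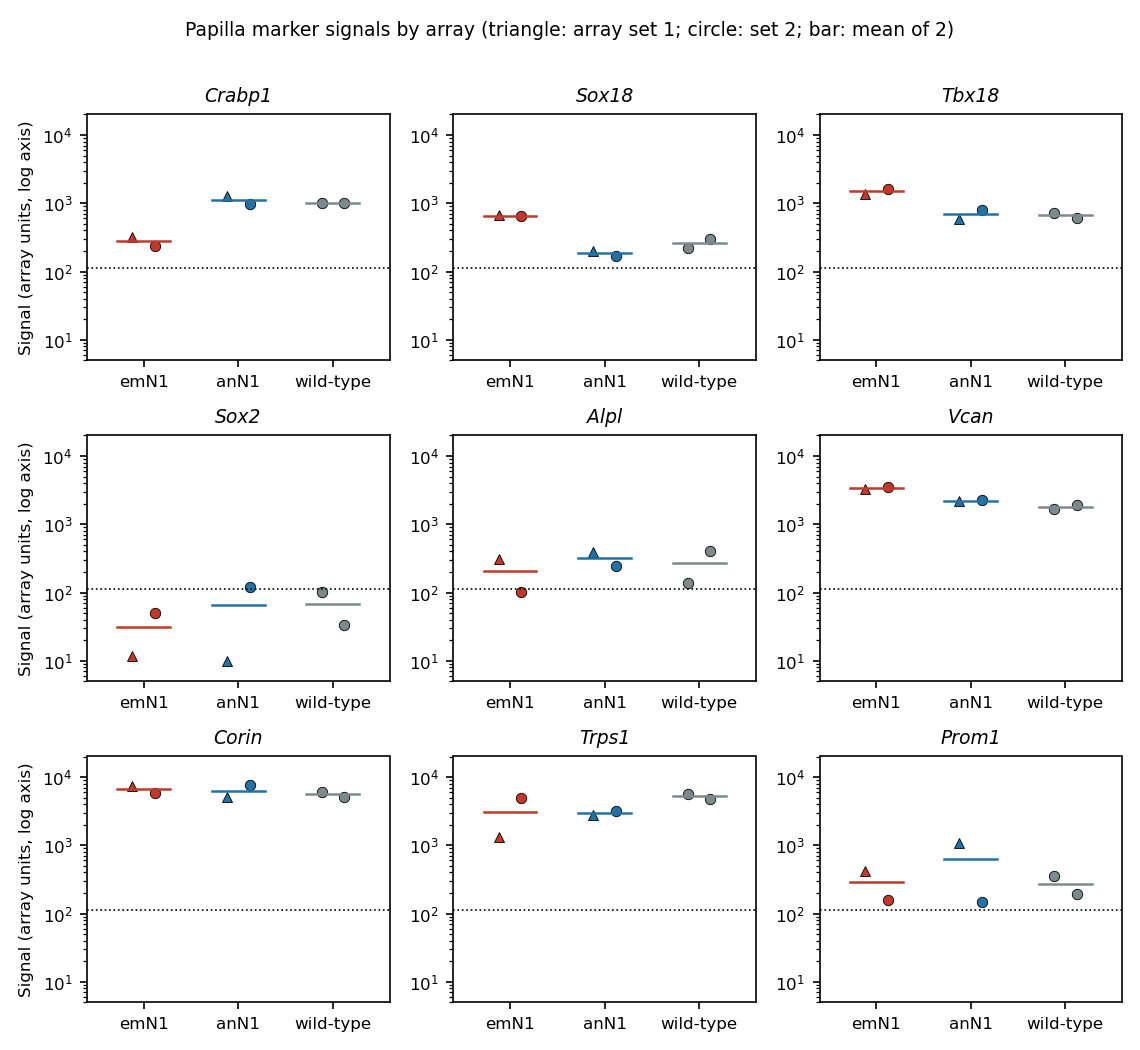
Signal of each marker gene on each array (vertical log axis, array units) in emN1, anN1 and wild-type bulbs, with the brightest kept probe set of each gene, or the single one of Sox2. Triangles are array set 1, circles set 2, bars the mean of 2 arrays and the dotted line the background limit of 111.8. Crabp1 is lower and Sox18, Tbx18 and Vcan are higher in both emN1 arrays than in every control.

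For 3 genes that passed the test, the 250 bases before the annotated start site are shown, since Crabp1 fell while Tbx18 and Vcan rose. They come from RefSeq on GRCm38.p6, where 7 of the 9 genes had an entry. Capitals mark the letters TGGGAA, or TTCCCA on the opposite strand, the core bound by RBPJ, the DNA-binding partner of the Notch intracellular domain.

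Crabp1 (chr9:54764498-54764747, plus strand): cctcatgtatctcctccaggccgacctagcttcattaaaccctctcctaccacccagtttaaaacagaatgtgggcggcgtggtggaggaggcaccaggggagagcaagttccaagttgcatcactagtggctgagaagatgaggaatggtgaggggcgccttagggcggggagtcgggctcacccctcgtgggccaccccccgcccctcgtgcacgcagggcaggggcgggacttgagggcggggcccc

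Tbx18 (chr9:87731261-87731510, minus strand): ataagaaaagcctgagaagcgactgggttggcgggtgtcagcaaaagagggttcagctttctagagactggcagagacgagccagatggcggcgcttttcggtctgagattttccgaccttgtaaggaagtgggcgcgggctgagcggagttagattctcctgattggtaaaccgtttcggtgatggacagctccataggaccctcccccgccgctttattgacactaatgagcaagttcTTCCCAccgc

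Vcan (chr13:89742513-89742762, minus strand): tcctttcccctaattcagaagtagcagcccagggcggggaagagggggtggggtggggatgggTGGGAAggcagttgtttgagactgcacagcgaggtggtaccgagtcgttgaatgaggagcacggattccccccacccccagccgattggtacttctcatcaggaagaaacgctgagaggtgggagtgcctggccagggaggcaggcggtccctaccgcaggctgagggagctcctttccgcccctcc

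The Tbx18 stretch holds 1 such match, 10 bases before the start site, and the Vcan stretch 1, at 187 bases before it. The Crabp1 stretch holds none. Among the 9 stretches of the 7 marker genes, 3 held a match, the other one being from Prom1, at 116 bases before the start, where 21.6% of 32851 stretches of 250 bases before a RefSeq start site held one. The letters CTTTGA, or TCAAAG on the opposite strand, which are the core of the motif bound by LEF and TCF proteins of the Wnt pathway, were in none of the 9 stretches and in 13.8% of all. No match of either motif therefore overlapped one of the other. A match is a description of the letters in this window and shows no binding.

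Crabp1 encodes a cytoplasmic protein that binds retinoic acid, and it is a classical marker of the papilla. It had the largest decrease of the 12 probe sets that passed the filter. Its probe set (1448326_a_at) gave 321 and 239 in the emN1 arrays, 1292 and 973 in anN1, and 1018 and 1016 in wild-type bulbs. Both emN1 signals lay far under every control signal, with no overlap, and all 6 signals were above background. On the log2 scale Crabp1 was changed by -1.97 (SE 0.20), a 3.93-fold fall (limma adjusted p = 0.00308, 2 against 4 arrays). Within each array set emN1 differed from anN1 by the same amount, -1.95 in set 1 and -1.95 in set 2. It fell against each kind of control alone too, with differences of -1.95 from anN1 (SE 0.25, limma adjusted p = 0.0148) and -2.01 from wild-type (SE 0.28, limma adjusted p = 0.017). Both comparisons share the emN1 arrays. The call on emN1 against controls was lost without emN1 replicate 2 (adjusted p = 0.098) and, by a small margin, without the intensity trend (limma adjusted p = 0.0521).

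Tbx18 encodes a T-box transcription factor of mesenchymal cells, present in papilla precursors and, elsewhere in the body, in pericytes and smooth muscle. The brighter probe set (1429974_at) gave 1381 and 1615 in emN1, 593 and 797 in anN1, and 716 and 615 in wild-type bulbs. Both emN1 signals lay above every control, and the anN1 and wild-type signals overlapped. The gene rose by 1.18 (SE 0.20), or 2.27-fold (limma adjusted p = 0.0171), with 1.19 over anN1 in set 1 and 1.00 in set 2. Against anN1 alone it differed by 1.10 (SE 0.23) and against wild-type alone by 1.31 (SE 0.26), and neither passed (limma adjusted p = 0.0744 and 0.0596). Leaving out emN1 replicate 1 (limma adjusted p = 0.144), emN1 replicate 2 (0.201), anN1 replicate 1 (0.124) or the array set term (0.0673) ended the call against all controls. The second probe set (1449871_at) did not pass the filter. It gave 80.1 and 241 in emN1, 58.4 and 126 in anN1, and 111 and 87.7 in wild-type, so that 4 of its 6 signals were under background and the groups overlapped.

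Sox18 encodes an SRY-related transcription factor that acts in the papilla of most coat hairs and in endothelial cells. Its probe set (1449135_at) gave 674 and 644 in emN1, 197 and 172 in anN1, and 222 and 304 in wild-type bulbs. Both emN1 signals were close to each other and above every control, and the anN1 signals were the lowest. Sox18 rose by 1.54 (SE 0.33), or 2.90-fold, with a limma adjusted p of 0.0421. In set 1 the difference from anN1 was 1.69 and in set 2 it was 1.80. Against anN1 alone it was 1.75 (SE 0.36, limma adjusted p = 0.0693) and against wild-type alone 1.22 (SE 0.41, limma adjusted p = 0.242). The call was lost without emN1 replicate 1 (0.257), emN1 replicate 2 (0.247), anN1 replicate 1 (0.23), anN1 replicate 2 (0.0868) or wild-type replicate 1 (0.0864), these being limma adjusted p-values. It was lost as well without the filter (0.0783) and with quantile normalization of the arrays (0.0526).

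Vcan encodes versican, a large chondroitin sulphate proteoglycan of the matrix around papilla cells. The brightest of its 8 probe sets (1427256_at) gave 3283 and 3541 in emN1, 2178 and 2234 in anN1, and 1652 and 1891 in wild-type bulbs. The 3 groups did not overlap on this probe set, with emN1 highest and wild-type lowest, though anN1 and wild-type signals were apart on 32.7% of all probe sets. Vcan rose by 0.77 (SE 0.17), or 1.70-fold (limma adjusted p = 0.0478), with 0.59 over anN1 in set 1 and 0.66 in set 2. Against wild-type alone it rose by 0.98 (SE 0.18, limma adjusted p = 0.0466), and against anN1 alone it differed by 0.62 (SE 0.16, limma adjusted p = 0.139). The call against all controls lay so close to the threshold that leaving out any 1 of the 6 arrays lost it (limma adjusted p between 0.0566 and 0.382), as did a pseudocount of 1 (0.0503).

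A second Vcan probe set (1421694_a_at) gave 1099 and 1234 in emN1, 359 and 526 in anN1, and 326 and 743 in wild-type bulbs. Both emN1 signals were again above every control. Its difference of 1.38 (SE 0.33) was larger than that of the brightest probe set and did not pass (limma adjusted p = 0.0645), the wild-type arrays differing by more than 2-fold. In a separate fit over 12611 genes, with the log2 values of each gene's kept probe sets averaged, Vcan differed by 1.07 (SE 0.21) from the controls (limma adjusted p = 0.0187). That p is adjusted over genes and cannot be set beside those over probe sets, since Sox18, with 1 probe set, moved from 0.0421 to 0.0181 between the fits. The remaining 6 probe sets of Vcan did not pass the filter, and 2 of them were under background on all 6 arrays. Among these 6, 1459767_x_at gave 97.1 and 141 in emN1, 17.7 and 4.27 in anN1, and 5.22 and 10.6 in wild-type bulbs. Its emN1 signals lay above all controls, although only 1 of the 6 signals exceeded the background limit.

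**Figure D2:**
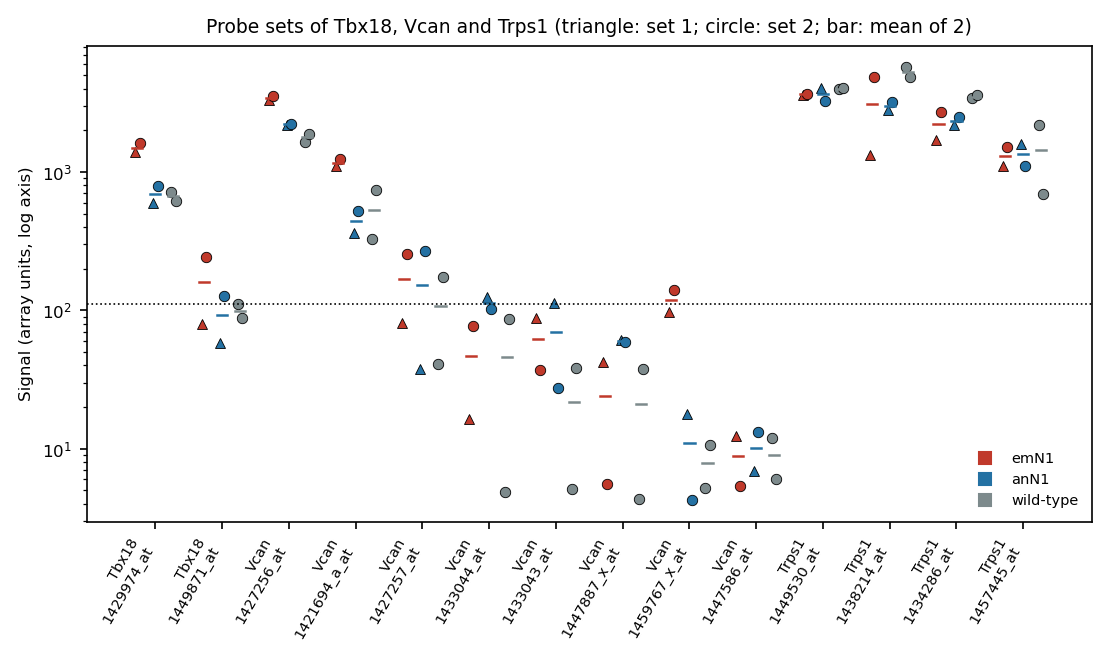
Signals (vertical log axis, array units) of all probe sets of the 3 marker genes with several, 2 for Tbx18, 8 for Vcan and 4 for Trps1, on each array. Colours are the groups, triangles array set 1, circles set 2, bars the mean of 2 arrays and the dotted line the background limit of 111.8. The emN1 points lie above all controls on both kept Vcan probe sets and on the brighter Tbx18 probe set, and overlap the controls on all 4 Trps1 probe sets.

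Corin encodes a transmembrane serine protease made by papilla cells that acts on the agouti pathway of coat colour. It was well above background on every array, with 7395 and 5915 in emN1, 5084 and 7531 in anN1, and 5943 and 5176 in wild-type (1419017_at). The groups overlapped, with the highest and the lowest signal both in anN1. The difference between emN1 and controls was 0.18 (SE 0.19, limma adjusted p = 0.709), with 0.54 over anN1 in set 1 and -0.35 in set 2. A test that was not passed does not show that Corin stayed the same.

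Trps1 encodes a GATA-type zinc finger repressor of the papilla and of early follicle epithelium. All 4 of its probe sets passed the filter and none passed the test. Their differences from the controls ran from -0.35 (SE 0.30, 1438214_at) to near 0 (SE 0.42, 1457445_at), with limma adjusted p between 0.543 and 0.999. The brightest of them (1438214_at) gave 1319 and 4869 in emN1, 2787 and 3180 in anN1, and 5709 and 4839 in wild-type. Here 1 emN1 array was the lowest of the 6 and the other was among the wild-type signals, and in array set 1 emN1 was 1.07 under anN1 while in set 2 it was 0.61 above. The tightest probe set (1449530_at) gave 3619 and 3667 in emN1 against 3236 to 4040 in the controls, a difference of -0.07 (SE 0.14). On 1434286_at both emN1 signals, 1707 and 2695, were under both wild-type signals, 3425 and 3565, and the anN1 signals, 2165 and 2475, were too. The emN1 signals on 1449530_at and the anN1 signals on 1438214_at also lay under both wild-type signals. None of these differences passed. The anN1 and wild-type signals were apart on 32.7% of all probe sets, and the share for emN1 and wild-type was not counted.

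Alpl encodes the tissue-nonspecific alkaline phosphatase by which papillae are often stained, and Prom1 the membrane protein CD133 used to sort papilla cells. Alpl (1423611_at) gave 309 and 103 in emN1, 390 and 248 in anN1, and 140 and 400 in wild-type, with 1 emN1 signal under background. Its replicates differed by over 2-fold in emN1 and in wild-type and all groups overlapped. The difference of -0.79 (SE 0.46) did not pass (limma adjusted p = 0.461). Prom1 (1419700_a_at) gave 418 and 159 in emN1, 1098 and 149 in anN1, and 352 and 195 in wild-type bulbs. Its anN1 arrays held both the highest and the lowest signal of the 6, and its difference of -0.79 (SE 0.42) did not pass either (limma adjusted p = 0.401).

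Sox2 encodes a transcription factor present in the papillae of guard, awl and auchene hairs and absent from those of zigzag hairs. Its only probe set (1416967_at) gave 11.9 and 49.9 in emN1, 10.1 and 120 in anN1, and 103 and 33.5 in wild-type. Only 1 of the 6 signals exceeded the background limit, so Sox2 was not measured above background here and no fold is given.

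**Figure D3:**
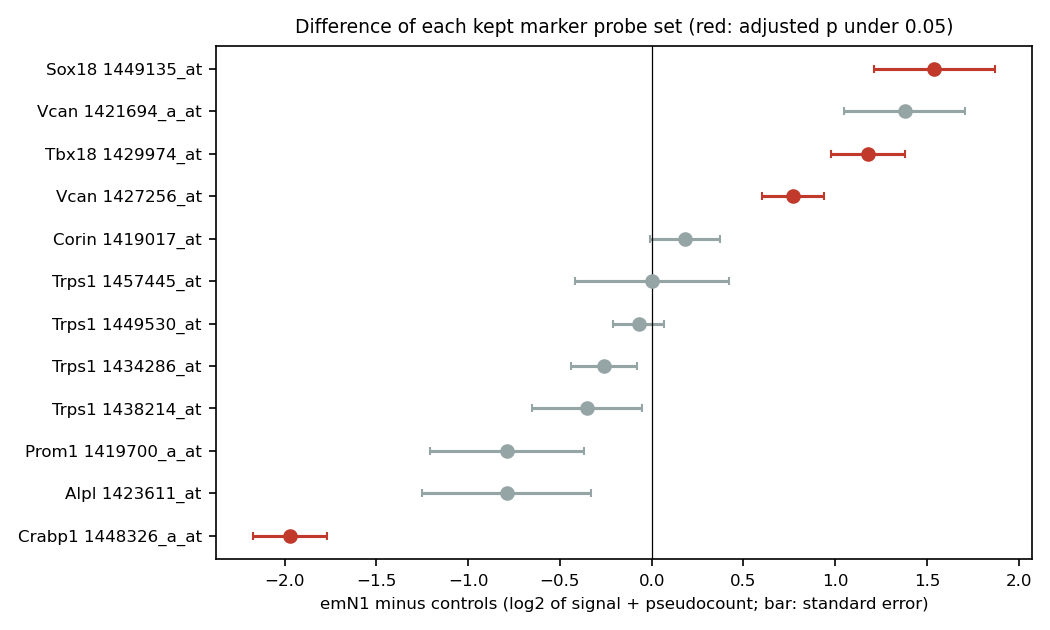
Difference between emN1 and control bulbs for the 12 marker probe sets that passed the filter (horizontal axis, log2 of signal plus pseudocount, with the standard error; 2 against 4 arrays). Red points passed the test and grey points did not: Crabp1 is at -1.97, and Sox18, Tbx18 and the brightest Vcan probe set are at 1.54, 1.18 and 0.77.

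Array set 1 paired 1 emN1 with 1 anN1 array, and set 2 held another such pair, so that the markers could be compared within each set. The difference had the same sign in both sets for 6 of the 12 probe sets, where 58.6% of all 27022 had the same sign. These 6 were Crabp1, Sox18, the brighter Tbx18, both Vcan probe sets and Alpl. Corin, Prom1 and all 4 Trps1 probe sets had opposite signs. Each value is a difference between 2 arrays and has no replicate of its own.

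**Figure D4:**
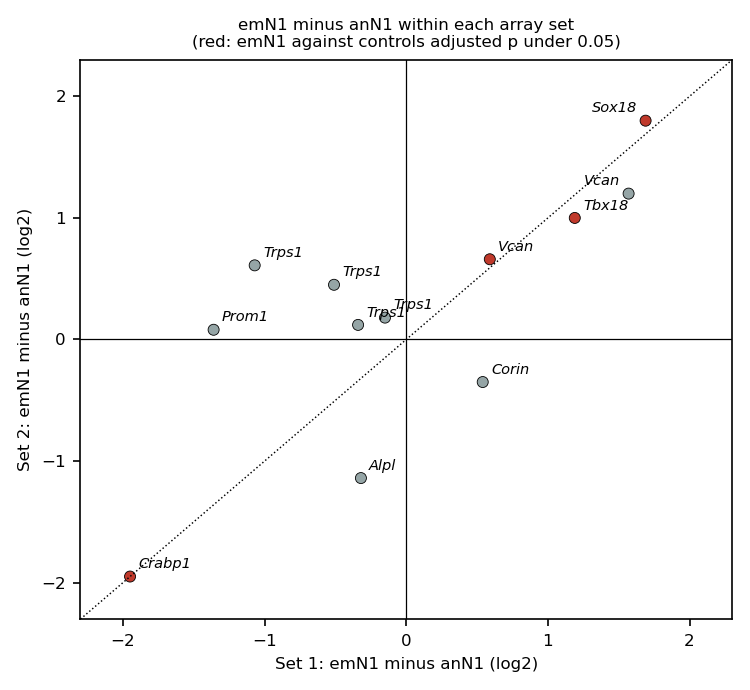
Difference between emN1 and anN1 in array set 1 (horizontal axis) and in array set 2 (vertical axis), both in log2 of signal plus pseudocount, for the 12 probe sets that passed the filter, with the line of equal values dotted. Red points passed the test of emN1 against all controls. Crabp1 lies at -1.95 on both axes, and the Corin, Prom1 and Trps1 points lie in the quadrants of opposite sign.

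Between the kinds of control, anN1 and wild-type, 0 of the 12 probe sets passed (limma, 0 at an unadjusted p under 0.05), where 0.074% of all 27022 did, and 3.64% at the unadjusted level. Crabp1 differed by -0.06 (SE 0.28), Tbx18 by 0.21 (SE 0.26) and Sox18 by -0.52 (SE 0.41). The brightest Vcan probe set, on which the signals of these groups did not overlap, differed by 0.35 (SE 0.18). Against anN1 alone 1 of the 12 emN1 values passed, Crabp1, where 2.02% of all did. Against wild-type alone 2 passed, Crabp1 and Vcan, where 2.16% of all did. At an unadjusted p under 0.05 the counts were 5 of 12 against anN1, where 13.4% of all probe sets passed, and 6 of 12 against wild-type, where 13.2% did (limma). These comparisons share arrays, and their differences were not tested against each other.

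Other genes known from the papilla were taken from a list of 27, of which 22 had a probe set that passed the filter. In emN1 1 rose, 1 fell and 20 did not pass, where 5.43% of all genes passed, with a median of -0.05 against -0.02 over all 12611 genes. Bmp4, a secreted signal of the papilla and matrix, gave 16868 and 10515 in emN1 against 5698 to 7502 in the controls. It rose by 0.89 (SE 0.15, limma adjusted p = 0.0168). Rspo3, a secreted enhancer of Wnt signalling, gave 1018 and 616 in emN1 against 1605 to 2049 in the controls. It fell by 1.30 (SE 0.20, limma adjusted p = 0.012). In both genes the emN1 arrays were apart from all controls. Both calls were lost without emN1 replicate 1 (limma adjusted p = 0.172 for Bmp4 and 0.0542 for Rspo3), emN1 replicate 2 (0.115 and 0.204) or anN1 replicate 1 (0.163 and 0.0533). Among the genes that did not pass, the secreted Wnt inhibitor Wif1 differed by -0.10 (SE 0.12), the ligand Wnt5a by 0.06 (SE 0.14), and the growth factors Fgf7 and Igf1 by -0.35 (SE 0.19) and 0.68 (SE 0.27). Those 4 genes were chosen for mention with their values already known. The summed signal of the 22 genes was 103464 and 104371 in emN1. It lay between anN1, at 93898 and 100965, and wild-type, at 106655 and 111516. Ptch1, the brightest of the 22, gave 40374 and 37708 in emN1. Its emN1 signals also lay between anN1, at 35754 and 33734, and wild-type, at 45417 and 44734. The order of the sums rests on Ptch1, since without it the sums of the groups overlapped.

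**Figure D5:**
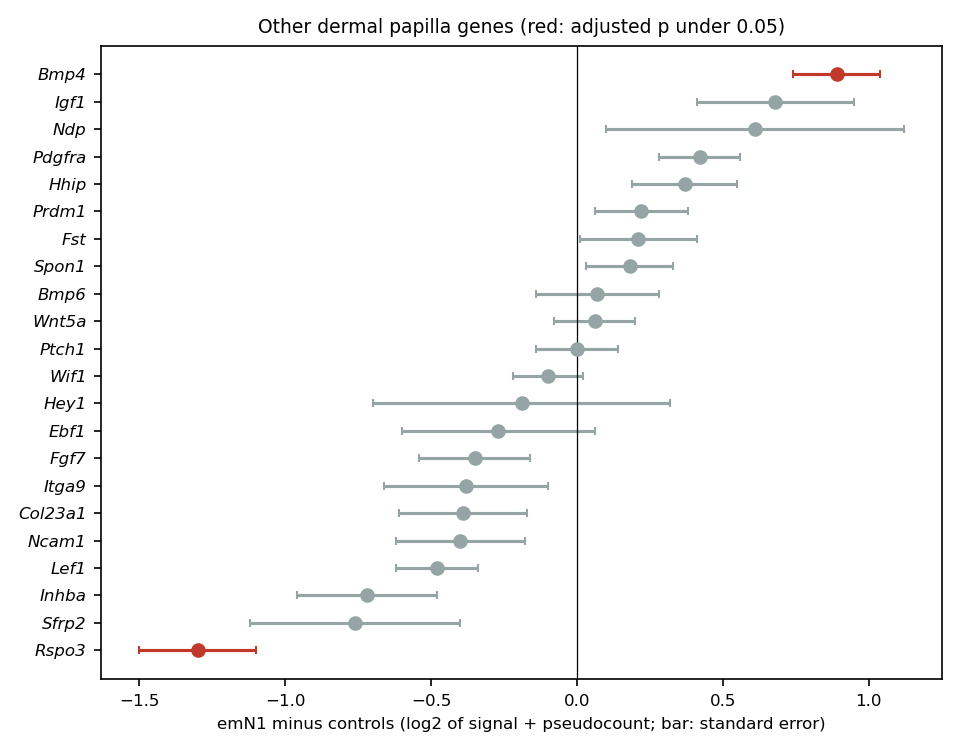
Difference between emN1 and control bulbs for the 22 other papilla genes with a kept probe set (horizontal axis, log2 of signal plus pseudocount, with the standard error; 2 against 4 arrays). Bmp4 at 0.89 and Rspo3 at -1.30, in red, passed the test, and the other 20, in grey, did not.

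Markers of neighbouring mesenchyme rose in the same arrays as Sox18, Tbx18 and Vcan. Of 10 genes of the dermal sheath and smooth muscle 7 passed the filter, and Myh11, Cnn1 and Des did not. Of the 7, 5 rose and none fell, where 5.43% of all genes passed, with a median of 1.00. Tagln (log2 1.69, SE 0.17) and Cspg4 (log2 1.57, SE 0.16) rose most. Itga8 (log2 0.03, SE 0.20) and Mcam (log2 0.95, SE 0.27) did not pass. The summed signal of the 7 was 47187 and 50451 in emN1, 24761 and 26617 in anN1, and 20645 and 20911 in wild-type. Of 13 measured dermal fibroblast genes 7 rose and none fell, with a median of 1.30. Thy1 (log2 1.51, SE 0.16) and Col5a2 (log2 1.5, SE 0.12) rose most. The other probe set of Col5a2 was at 0.58 (SE 0.16) and did not pass (limma adjusted p = 0.0962). Values were above 0 for 11 of the 13. Dcn, the brightest, was near 0 (SE 0.14) with all groups overlapping, and Dlk1 was at -0.71 (SE 0.39). Neither passed. The 13 genes summed to between 125931 and 149541 in emN1, 76322 and 83366 in anN1, and 73345 and 97030 in wild-type. Without the intensity trend limma called no probe set of either list, and without emN1 replicate 2 it called none as higher, 1 of all 27022 being called as lower. In both lists the emN1 sums lay above every control, and no gene of either list was under background on all arrays. The part of these cells in the rise of the 3 markers was not tested.

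Endothelial cells express Sox18 and Schwann and Merkel cells express Sox2, so their markers are given too. Of all 12611 genes 5.43% passed the test of emN1 against controls. Of 8 endothelial genes 4 passed the filter, and none of these passed the test (median 0.55). They summed to between 1281 and 1440 in emN1, 1042 and 1476 in anN1, and 1101 and 1448 in wild-type, with Pecam1 and Tie1 under background on all arrays. Eng, at 674 and 577 in emN1, lay above every control (338 to 441), and Tek, at 202 and 346, lay below every one (349 to 794). Of 3 measured Schwann cell genes 1 rose, Pmp22 (log2 0.92, SE 0.14), which fibroblasts express as well. Neither S100b (log2 -0.71, SE 0.45) nor Mbp (log2 1.04, SE 0.51) passed. The sums, which are mostly Pmp22, were between 4471 and 4904 in emN1, 2211 and 2911 in anN1, and 2426 and 3022 in wild-type bulbs. The Pmp22 call ended without emN1 replicate 1 (limma adjusted p = 0.113), emN1 replicate 2 (0.152) or anN1 replicate 1 (0.102). Of 5 Merkel cell genes 2 passed the filter and none passed the test, with sums between 655 and 940 on all 6 arrays. These sums are mostly Krt18 (log2 0.26, SE 0.26). Krt8 (log2 -1.63, SE 0.53), at 128 and 26.7 in emN1, lay below every control (162 to 298), with 1 emN1 signal under background. Immune cell genes rose in 3 of 5 measured cases, and their sums were between 5056 and 6173 in emN1, 869 and 1063 in anN1, and 993 and 1017 in wild-type, with Cd3e under background on all arrays. The genes with the largest change that passed were Csf1r (log2 2.72, SE 0.24) and Ctss (log2 2.71, SE 0.36). Other kept probe sets of Csf1r were at 2.13 (SE 0.33, limma adjusted p = 0.0116) and 0.13 (SE 0.29, 0.891), and Ctss ran from 1.96 to 3.21 over the alternatives. Both calls ended without emN1 replicate 2 (limma adjusted p = 0.101 and 0.191). Their part in the marker values was not tested.

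The genes with the most similar profile over the 6 arrays were found by the Euclidean distance between log2 signals centred on each gene's own mean, among 12603 other genes. For Crabp1 these were Glrb (distance 0.22) and Mfsd2a (0.25), which fell by 1.84 (SE 0.16) and 1.77 (SE 0.13). For Sox18 they were Tmem204 (0.41) and Ctsk (0.42), for Tbx18 Dusp2 (0.17) and Bmp1 (0.17), and for the brightest Vcan probe set Glt28d2 (0.13) and Smtn (0.19). With 6 arrays in 3 groups, many genes that differ in emN1 alone come close to one another.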

How the data were processed

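Total RNA of hair bulbs was hybridised to 6 one-colour arrays. The deposited values are linear signal intensity values of 45101 probe sets, made with MAS5 per the submitters' processing notes (its version is not given in the sources used here), and the mean between the 2nd and 98th percentile was 1499 or 1500 on every array. They cannot show a change of all transcripts together. The 64 control probe sets were left out, and genes were named from the platform annotation where it gave 1 symbol (34958 probe sets; 932 had several and 9211 none). The members and gene lists were chosen with earlier results of these data known.

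A pseudocount of 17.8, the 10th percentile of all signals, was added before log2, and the upper 60% of probe sets by mean log2 signal were kept. limma 3.58.1 in R 4.3.3 fitted group and array set with an intensity trend, with p-values adjusted by Benjamini-Hochberg over 27022 probe sets. With 3 residual degrees of freedom for emN1 against controls and 2 for the other comparisons, the number of arrays limits the precision. The design text makes the replicate number of emN1 and anN1 an array set. The differences between replicates of emN1 and anN1 correlated at 0.38 across the 27022 probe sets, and wild-type numbers mark no set. Named genes were all members, Notch1, up to 6 papilla genes and up to 2 genes of each other list past the threshold by size of change, and the 2 nearest profiles of each member that passed. The probe set with the highest mean signal stood for a gene. The code was tested on simulated data, and figures were drawn with matplotlib 3.10.9. Alternatives varied the pseudocount, filter, variance trend, array set term, scaling, background floor, probe set choice and arrays used.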

Additional observations from a re-analysis of the deposited data

Results flagged for a closer look

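Of 20 marker probe sets, each over the 4 control arrays, 3 had an array whose gap to the nearest of the others, as a share of the whole range, was above the critical value of 0.829, where chance gives about 1 in 20. That chance level takes the 4 arrays as 1 group, but they were anN1 and wild-type arrays. Among them anN1 replicate 1 was the only one in array set 1. For Crabp1 (1448326_a_at) the gap was 0.841 of the range, with anN1 replicate 1 at 1292 above the other 3 controls, which lay between 973 and 1018. For Trps1 (1449530_at) it was 0.913, with anN1 replicate 2 at 3236 below the others. For the dim Vcan probe set 1433044_at it was 0.83, with wild-type replicate 1 at 4.87, and 3 of the 4 controls were under the background limit.

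Of 4 control probe sets for Cre recombinase, which belong to the array's hybridization controls and were used in no comparison, 2 were above the background limit of 111.8 on all emN1 and anN1 arrays. The probe set AFFX-CreX-3_at gave between 395 and 515 in emN1 and anN1 and between 62.4 and 79.0 in wild-type. The probe set AFFX-r2-P1-cre-3_at gave between 349 and 612 in emN1 and anN1 and between 4.29 and 29.2 in wild-type. The wild-type signals of both were under the limit. Of the other two, AFFX-r2-P1-cre-5_at lay between 93.7 and 205 in emN1 and anN1 and up to 33.4 in wild-type. AFFX-CreX-5_at was under the limit on all 6 arrays, between 11.4 and 101 in emN1 and anN1 and between 3.12 and 4.25 in wild-type.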

How the results depend on the processing

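Of the 12 marker probe sets, 4 were called in emN1 against controls, 1 against anN1, 2 against wild-type and 0 between anN1 and wild-type, and of all probe sets 1020, 545, 584 and 20. Without the intensity trend limma called 0 of all probe sets in each comparison (4044, 3109, 3003 and 1118 at an unadjusted p under 0.05) and 0 markers (5, 5, 5 and 0). With no replicate block, that is without the array set term, markers called were 1, 0, 0 and 0 (5, 5, 6 and 0 at an unadjusted p under 0.05). All calls were then 286, 42, 215 and 14 (2783, 1981, 2641 and 734 unadjusted). In array set 2 alone, markers called were 1, 0, 0 and 0 (5, 5, 4 and 3 unadjusted), and all calls 185, 0, 26 and 0 (3460, 1930, 2897 and 786 unadjusted). Without the filter 2, 1 and 1 of 20 markers were called against controls, anN1 and wild-type, and 856, 461 and 497 of all 45037 probe sets. With median centring 3, 2 and 1 of 12 markers were called, and 885, 610 and 584 of all probe sets, with 42 between anN1 and wild-type. Leaving out 1 array at a time gave 0 to 4 markers against controls, 0 to 4 against anN1, 0 to 3 against wild-type and 0 between the controls, with all calls 1 to 1092, 0 to 1269, 0 to 1375 and 0 to 173. A lone array is there assumed to vary like the other groups, and without either array of set 1 the other one carries no comparison. The causes of these shifts were not tested. Crabp1 kept its direction in emN1 against controls under all 15 alternatives (-2.04 to -1.88), as did Tbx18 (1.12 to 1.23) and, in the 14 that tested it, Sox18 (1.44 to 1.69). Directions reversed only for values that passed no test. In set 2 alone Corin turned to -0.05, Trps1 1438214_at to 0.13 and Trps1 1457445_at to 0.34, and the last was at 0.00 with a pseudocount of 1 and 0.02 with no replicate block. With 1 array left out these ran from -0.05 to 0.54, -1.07 to 0.13 and -0.51 to 0.34. Between anN1 and wild-type, Crabp1 turned to 0.14 with no replicate block and Vcan 1421694_a_at to 0.09 in set 2 alone (-0.58 to 0.57 with 1 array left out). Signals near 111.8 or below limit what can be said of Sox2, Alpl, the dimmer Tbx18 probe set and 6 Vcan probe sets.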

Other observations

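Lists of other cells of the bulb were counted in the same way, where 5.43% of all genes passed. Of 10 melanocyte genes 8 fell and 2 did not pass (limma, median -1.54), led by Trpm1 (log2 -2.46, SE 0.10), a cation channel of pigment cells, and Sox10 (log2 -2.27, SE 0.32), a transcription factor of the neural crest. The Sox10 value went to -1.67 without emN1 replicate 1 (limma adjusted p = 0.054) or anN1 replicate 1 (0.0612) and to -3.16 without emN1 replicate 2 (0.0714), and its other kept probe set was at -0.68 (SE 0.32, limma adjusted p = 0.338). Their summed signal was between 99803 and 118033 in emN1, 279613 and 323431 in anN1, and 228055 and 246496 in wild-type. Of 10 genes of hair matrix and basal epithelium 3 rose, 1 fell and 6 did not pass (median 0.13). Krt14, a keratin of basal cells, rose (log2 1.15, SE 0.11) and Krt17, a keratin of follicle epithelium, fell (log2 -0.69, SE 0.14). Of the other kept probe sets, those of Krt14 were at 1.52 (SE 0.14, limma adjusted p = 0.00224) and 0.14 (SE 0.45, 0.928), and that of Krt17 at -0.67 (SE 0.40, 0.47). The Krt17 call held under 7 of 15 alternatives (-1.0 to -0.49, limma adjusted p up to 0.219), and leaving out any 1 array but wild-type replicate 2 ended it. The Krt14 call ended without emN1 replicate 2 (limma adjusted p = 0.098). Of 5 measured adipocyte genes none passed (median 0.66), and Pparg and Lep were under background on all arrays.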
